A study of Mus musculus with 3 samples.

Results

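Pigment lineage cells were taken from single-cell RNA sequencing of dorsal mouse skin as the barcodes that carried the transcripts of melanin synthesis. A barcode, which tags the RNA of 1 droplet, was kept with at least 300 genes, at least 500 unique molecular identifiers (UMIs, counts of single transcript molecules) and at most 10% mitochondrial UMIs. It was taken as a pigment cell when at least 3 of the 5 genes Pmel, Dct, Tyrp1, Mlana and Tyr had a UMI and the 5 together held at least 0.2% of its UMIs. These cells were thus chosen by the levels of those 5 genes. The rule found 156 of 26143 kept barcodes. They comprised 18 of 7911 in the neonatal library, 46 of 8900 in the 3 week library and 92 of 9332 in the 2 month library. All 3 libraries came from C57BL/6 mice, whose skin was cut up and dissociated by collagenase D with DNase before capture with the Chromium 3′ kit, with no treatment named in the labels. There was 1 library per age, and the number and sex of the animals in each were not stated. Differences between ages therefore carry no test, and intervals given for them are 95% intervals that cover counting error only.

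Melanocytes arise from the neural crest, partly by way of Schwann cell precursors along nerves, and in mouse dorsal skin they settle mainly in hair follicles. Mature cells in the growing follicle make melanin in melanosomes and pass these to keratinocytes, while stem cells in the bulge and hair germ hold little pigment and refill the bulb with each hair cycle. The factor MITF, which binds E-box DNA motifs containing the letters CATGTG, acts on many pigment genes, and PAX3, SOX10, the receptor KIT and the endothelin receptor EDNRB act with it in the lineage.

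The promoters of 3 of the enzymes that chose the cells and of the channel gene Trpm1 are shown because each is a pigment gene described below and holds a motif of the kind that MITF binds. The sequences are from RefSeq on GRCm38.p6, from 250 bases before to 50 bases after each start, written 5′ to 3′ along the gene, with CATGTG or its reverse complement CACATG in capitals. Tyr encodes tyrosinase, the rate-limiting enzyme of melanin synthesis, and its window is chr7:87493463-87493762 on the minus strand. Tyrp1 encodes a melanosomal enzyme that acts after tyrosinase, with the window chr4:80833963-80834262 on the plus strand. Dct encodes dopachrome tautomerase, with the window chr14:118052197-118052496 on the minus strand. For Trpm1, a cation channel gene of melanocytes and retina, the first of 2 starts is shown, with the window chr7:64153585-64153884 on the plus strand.
Tyr: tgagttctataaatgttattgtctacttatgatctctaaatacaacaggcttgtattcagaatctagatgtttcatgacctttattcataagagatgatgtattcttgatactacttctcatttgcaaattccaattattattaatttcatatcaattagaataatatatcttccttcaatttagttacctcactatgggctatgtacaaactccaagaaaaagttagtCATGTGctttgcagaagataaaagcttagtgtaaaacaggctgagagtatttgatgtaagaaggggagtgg
Tyrp1: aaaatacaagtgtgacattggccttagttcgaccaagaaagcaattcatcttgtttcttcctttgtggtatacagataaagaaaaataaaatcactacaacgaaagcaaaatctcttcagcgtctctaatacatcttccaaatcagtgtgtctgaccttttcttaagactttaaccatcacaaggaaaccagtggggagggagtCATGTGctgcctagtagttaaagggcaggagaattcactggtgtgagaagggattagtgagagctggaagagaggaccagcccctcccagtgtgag
Dct: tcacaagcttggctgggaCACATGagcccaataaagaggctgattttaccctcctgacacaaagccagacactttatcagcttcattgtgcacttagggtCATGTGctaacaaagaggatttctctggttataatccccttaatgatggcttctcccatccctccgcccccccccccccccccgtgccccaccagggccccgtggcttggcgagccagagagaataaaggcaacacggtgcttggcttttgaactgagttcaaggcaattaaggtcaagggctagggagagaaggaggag
Trpm1: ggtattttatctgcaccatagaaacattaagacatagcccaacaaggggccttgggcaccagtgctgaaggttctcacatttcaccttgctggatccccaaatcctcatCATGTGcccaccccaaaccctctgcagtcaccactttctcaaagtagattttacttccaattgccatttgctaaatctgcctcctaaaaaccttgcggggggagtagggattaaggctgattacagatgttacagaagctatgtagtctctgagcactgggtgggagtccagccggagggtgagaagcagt
The motif lay 21 bases before the start of Tyr, 46 bases before that of Tyrp1, and 141 bases before that of Trpm1. Dct held 2 copies, 232 and 150 bases before its start. Searched on both strands, the 6 letters were present in 4650 of 32851 promoter windows (14.2%). All 3 of the 5 rule genes that matched the table held the motif, and Pmel and Mlana had no entry. Of the melanosome and pigment list described below, 7 of 21 matched genes (33.3%) held it at a start, and of the lineage factors 1 of 12 (8.33%), against 4293 of 27025 genes overall (15.9%). Among the genes called higher in pigment cells than in all other barcodes it was present in 53 of 349 (15.2%), against 1154 of 10875 tested genes (10.6%). These are matches of letters in a window and not measured binding.

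The 3 libraries held between 84086755 and 113874172 UMIs on 8452 to 10226 deposited barcodes. Between 23 and 31 kept barcodes were shared by each pair of libraries, and 1 pigment cell of the 2 month library had a barcode that was also kept in the neonatal library. Pigment cells differed in depth between libraries. Their median was 13361.5 UMIs in the neonatal library, 11274 at 3 weeks and 2052 at 2 months, while the medians of all kept barcodes were 8685, 11142.5 and 8529.5. Schwann class barcodes were also shallower at the older ages, with medians of 8523, 3351 and 2851 UMIs.

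Some of the pigment cells also carried at least 3 markers of another cell class. These were 7 of 18 neonatal cells, 25 of 46 at 3 weeks and 22 of 92 at 2 months. Keratinocyte markers (Krt5, Krt14, Krt15, Krt1, Krt10, Krt17, Krt79 and Trp63) were the most frequent, in 5, 21 and 18 cells. Fibroblast markers were present in 3, 6 and 5 cells, immune markers in 1, 7 and 1, and Schwann markers in 0, 2 and 2. No pigment cell had 3 or more endothelial, mural or mast cell markers. In the 5, 21 and 18 cells with keratinocyte markers the median count of Krt14, a basal keratin, was 47, 64 and 30.5 UMIs, and in all other pigment cells the highest count was 0, 1 and 2. Lhx2, a factor of hair follicle stem cells, was detected in 3, 17 and 16 of the cells with keratinocyte markers and in 1, 0 and 0 of the others. Of the 7 cells with immune markers at 3 weeks, 6 had Cd207, the Langerhans cell lectin, and 6 had Cd74, a chaperone of class II antigen presentation.

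The cells with markers of another class were deeper, with medians of 20738, 21225 and 12339 UMIs against 9063, 5358 and 1809 in the rest. Their 5 rule genes held a lower share, with medians of 0.445%, 0.881% and 0.347% of UMIs against 1.71%, 1.89% and 0.807%. At 2 months no cell without such markers had more than 3606 UMIs. In the neonatal, 3 week and 2 month libraries the cells without such markers held 108852, 134292 and 135493 UMIs. All pigment cells together held 307977, 856334 and 463135 UMIs. The sums over all pigment cells therefore came mostly from cells with markers of another class. A doublet score called 4 of the 18 neonatal pigment cells and none at the older ages. The neonatal calls were the 475 highest scores of that library, while the score's own threshold was used at the older ages. These counts therefore cannot be compared between libraries, and a cell without a call may still be a doublet. Whether the barcodes with markers of another class are 2 cells in 1 droplet was not tested. The counts of genes below are given with all 156 cells. For the main comparisons and lists they are also given with the 11, 21 and 70 cells without 3 or more markers of another class. That division was made after the data were seen, and since a shallow barcode can show fewer markers, it also divides the cells by depth.

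**Figure D1:**
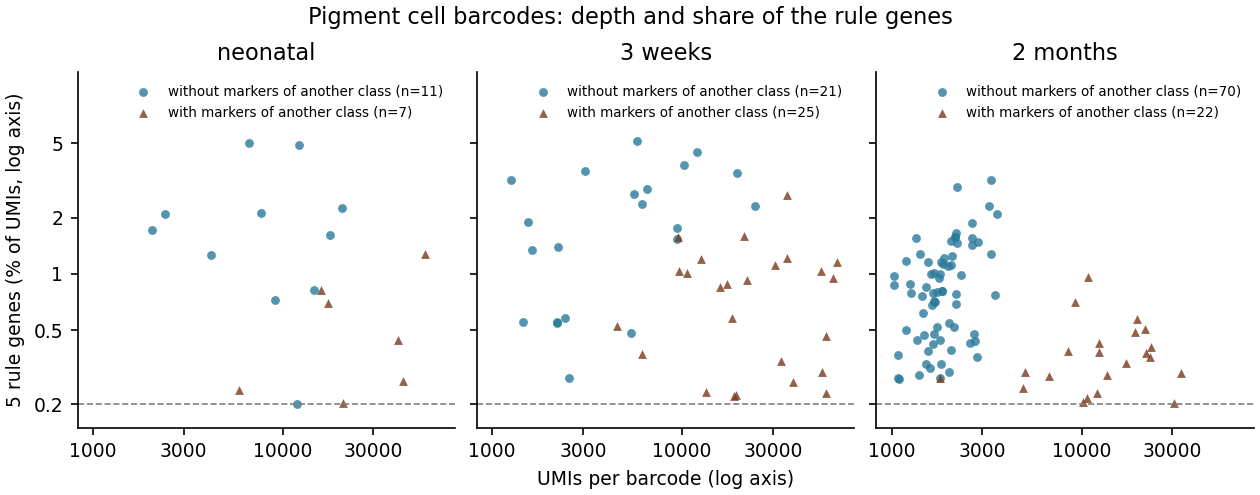
UMIs per barcode (x, log axis) against the percent of UMIs in the 5 rule genes (y, log axis) for every pigment cell of the 3 libraries; triangles carry 3 or more markers of another class and the dashed line is the 0.2% threshold. Cells without such markers at 2 months lie at or below 3606 UMIs, and every deeper cell there is a triangle.

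At 3 weeks and 2 months the rule was met with little room at its edge, and in the neonatal library with more. The lowest share among pigment cells was 0.201%, 0.223% and 0.204% in the 3 libraries, and the highest among barcodes with 3 of the genes but too low a share was 0.0724%, 0.197% and 0.188%. There were 4, 16 and 25 barcodes of that kind. A further 0, 8 and 42 barcodes met the share with fewer than 3 of the genes, and of the 42 at 2 months 38 had Dct and 25 had Tyrp1. The median depth of these 42 was 1438 UMIs.

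Pigment cells made up 0.228% (0.135 to 0.359) of kept barcodes in the neonatal library, 0.517% (0.379 to 0.689) at 3 weeks and 0.986% (0.795 to 1.21) at 2 months, with exact Clopper-Pearson intervals. The 3 intervals did not overlap in this setting. With a mitochondrial limit of 5% the 3 week interval reached 0.677% and the 2 month interval began at 0.641%, and with cells of at least 1500 UMIs these bounds were 0.673% and 0.671%. With a rule share of 0.5% the neonatal interval reached 0.281%, that at 3 weeks ran from 0.274% to 0.547% and that at 2 months began at 0.435%, so neighbouring intervals overlapped. The order of the 3 shares was the same under each of these settings. Without the cells that carried markers of another class the shares were 0.139% (0.0695 to 0.249), 0.237% (0.147 to 0.361) and 0.752% (0.587 to 0.949), and then only the 2 month interval stood apart from the other two. With 1 library per age, age and library cannot be told apart.

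**Figure D2:**
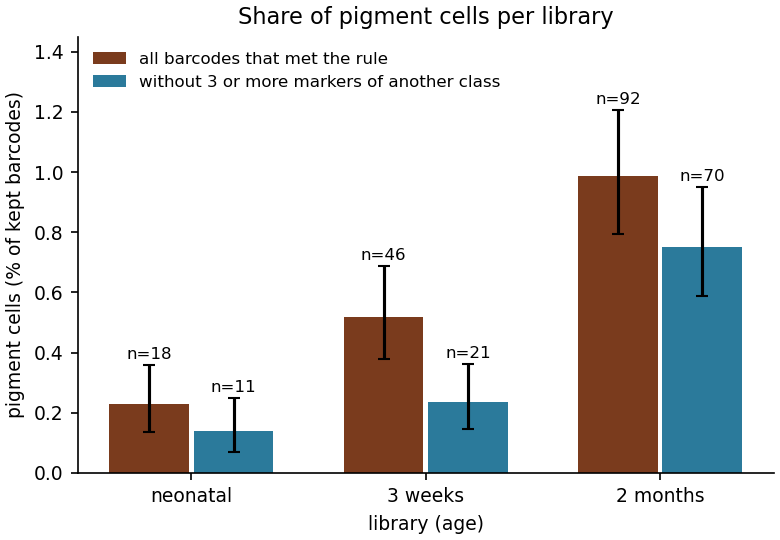
Pigment cells as percent of kept barcodes (y) in each library (x), for all cells that met the rule and for those without 3 or more markers of another class; bars start at 0, error bars are exact 95% binomial intervals and n is the number of cells. The shares were 0.228%, 0.517% and 0.986% for all cells.

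Within each library the cells varied in the genes that chose them. The 5 genes held between 0.201% and 4.99% of a neonatal cell's UMIs, 0.223% and 5.12% at 3 weeks, and 0.204% and 3.19% at 2 months, with medians of 1.04%, 1.04% and 0.682%. All 5 genes were detected in 11 of 18 neonatal cells, 32 of 46 cells at 3 weeks and 19 of 92 at 2 months. Dct was detected in every pigment cell. Pmel, the fibril protein of the melanosome, was detected in 100%, 95.7% and 76.1% of cells, and Tyr in 83.3%, 71.7% and 35.9%. After each cell was thinned to 1500 UMIs, which left out 0, 2 and 16 shallower cells, Pmel was detected in 88.9%, 93.2% and 71.1% and Tyr in 33.3%, 22.7% and 15.8%. The Schwann class, with medians of 8523, 3351 and 2851 UMIs, gave a background for Tyrp1 of 7.41%, 9.05% and 15.5% of thinned barcodes, against 38.9%, 65.9% and 78.9% in pigment cells. Mlana, a melanosomal membrane protein, had no UMI in 108, 239 and 421 Schwann class barcodes. Since the rule used Tyrp1 and Mlana, and no pigment cell could enter the Schwann class, these shares are a description.

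To ask which other genes separate pigment cells from the rest of the skin, UMIs were summed per library over the pigment cells and over all other kept barcodes, and the 3 pairs were compared with edgeR. The test is its quasi-likelihood F test with the library as a block, and a gene is called at a Benjamini-Hochberg adjusted p below 0.05 and a difference of at least 2-fold. Because the 3 pairs come from 3 ages, the spread in the test includes age. Values per library are CPM, a group's UMIs of the gene scaled to the group's total. Of 14632 genes tested, 471 (3.22%) were higher and 1558 (10.6%) lower in pigment cells, with a median log2 fold change of -0.16, and the 5 rule genes are not counted. In the cells without markers of another class 460 were higher and 1653 lower, of which 309 and 1090 were shared with the calls from all cells. Without the 3 week library 274 were higher and 966 lower.

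Genes of the melanosome and of pigment transport rose in pigment cells. Of 26 list genes tested 12 were higher and none lower, and the list's median log2 fold change was 0.92, while in the cells without markers of another class 13 were higher and none lower. Slc45a2, a transporter of the melanosome membrane, had 214, 137 and 38.9 CPM in the neonatal, 3 week and 2 month pigment cells. All other barcodes held 0.0370, 0.147 and 0.0626 CPM of Slc45a2. Its log2 fold change was 10.09 ± 0.49 (SE, edgeR adjusted p = 2.43e-08). Gpr143, the melanosomal receptor behind ocular albinism, had 52.0, 30.4 and 15.1 CPM and a log2 fold change of 9.55 ± 0.85. For Trpm1 the log2 fold change was 8.26 ± 0.57. Oca2, a melanosomal chloride channel gene, had 26.0 and 7.01 CPM in the 2 younger libraries and no UMI at 2 months, where the floor of 3 counts is 6.48 CPM, and its log2 fold change was 6.46 ± 0.96. Slc24a5, a cation exchanger of the pigment organelle, was higher by 4.51 ± 0.31 on the log2 scale. Its exons overlap those of Myef2 on the other strand by 714 bases. Counting by strand was not stated in the sources used here, and whether it kept reads of the pair apart was not tested. The same holds for shorter opposite-strand overlaps of Pmel with Cdk2 and Dgka, and of Mc1r, Syt4, Trpm1 and Tfap2a with unnamed gene models.

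Genes that move melanosomes were also among the 12. Rab27a, Mlph and Myo5a encode the complex that ties melanosomes to actin, and their log2 fold changes were 3.06 ± 0.39, 5.34 ± 0.45 and 2.60 ± 0.24. Gpnmb, a glycoprotein of melanosomes and lysosomes, was higher by 4.64 ± 0.88, with 984, 865 and 540 CPM in pigment cells against 5.52, 22.9 and 169 CPM elsewhere. Among the other barcodes, the 2 month fibroblast class held 292 CPM of Gpnmb, with a UMI in 65.1% of barcodes (28.2% thinned). Mlana was at 26.8 CPM in the same 2 month fibroblast class, in 12.5% of barcodes (2.39% thinned), and at 0.0308 and 0.227 CPM in the 2 younger fibroblast classes.

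Lineage factors rose as well, 10 of 18 tested with 2 lower and a list median of 1.33, and in the cells without markers of another class 10 were higher and 1 lower (median 1.91). Pax3, a paired-box factor of melanoblasts and melanocyte stem cells, had 266, 263 and 548 CPM against 2.26, 1.68 and 3.25 CPM elsewhere, a log2 fold change of 6.90 ± 0.31 (edgeR adjusted p = 1.90e-08). Sox10, the neural crest factor upstream of Mitf, had 114, 87.6 and 95 CPM against 5.56, 3.07 and 6.66 CPM, or 4.05 ± 0.29. Mitf had 192, 255 and 328 CPM against 11.2, 19.6 and 33.7 CPM, or 3.39 ± 0.27. Tfap2b was higher by 3.17 ± 0.26 and Foxd3, a repressor of early neural crest differentiation, by 3.15 ± 0.45. Sox9, a follicle factor, was called higher with all cells (1.24 ± 0.30), but in the cells without markers of another class it was lower, at -3.25. Sox2 had no UMI in the pigment cells of any library.

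Among 21 receptor and ligand response genes 5 were higher and 4 lower, with a list median of -0.45, and in the cells without markers of another class the counts were 5 and 4 (median -1.18). With all cells the 5 were Kit, Mc1r, Ednrb, Met and Erbb3. Kit, the receptor for stem cell factor, had 179, 146 and 121 CPM against 6.97, 1.82 and 1.43 CPM, a log2 fold change of 5.51 ± 0.36. Mc1r, the melanocortin receptor that sets the type of melanin, was higher by 5.21 ± 0.60 and Ednrb by 3.97 ± 0.43. Tgfbr2 was lower by -2.65 ± 0.31. Kitl, which encodes stem cell factor, was at 48.0, 36.8 and 10.1 CPM in the fibroblast class and at 16.2, 32.7 and 30.2 CPM in pigment cells, but at 9.19, 0 and 0 CPM in those without markers of another class. Edn3, which encodes a ligand of EDNRB, was at 12.6, 5.98 and 4.35 CPM in the fibroblast class with no UMI in any pigment cell.

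Genes outside melanin synthesis marked the cells too. Ptgds, prostaglandin D synthase, had 2864, 1895 and 2401 CPM against 2.25, 5.56 and 6.67 CPM elsewhere (log2 fold change 8.75 ± 0.49) and was the 1 of 16 tested lipid mediator and secreted genes that was higher, with 10 lower. Of 20 adhesion genes 5 were higher and 3 lower (median 0.29), and in the cells without markers of another class 6 were higher and 6 lower (median -0.17). With all cells P-cadherin, Cdh3, was higher by 3.62 ± 0.29 and Alcam by 2.84 ± 0.46. None of 16 genes for major histocompatibility complex (MHC) proteins and interferon response was higher and 6 were lower (8 in the cells without markers of another class), among them Ifitm3 at -2.22, H2-Q4 at -2.04 and Irf1 at -1.93. No lysosome gene of 19 was called in either direction. Of 14 melanocyte stem cell and melanoblast genes 4 were higher and 5 lower (median 0.42), against 4 and 6 (median -0.74) in the cells without markers of another class. Of 18 genes shared by neural crest and Schwann cells 7 were higher and 3 lower, against 8 and 2, and of 18 antioxidant and metal genes 2 were higher and 1 lower, against 2 and 2.

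Cell cycle and dissociation genes depended on which cells were summed. Of 24 cell cycle genes 5 were higher and none lower with all cells, with Mcm2 at 1.58 and the proliferation antigen Mki67 at 1.16, but in cells without markers of another class 1 was higher and Mki67 was at -0.01. Of 16 genes that respond to tissue dissociation, none was higher and 3 were lower with all cells, and 15 were lower in the cells without such markers, where the median was -1.96. Mki67 or Top2a was detected in 4, 15 and 1 of the 7, 25 and 22 cells with markers of another class and in 2, 2 and 1 of the 11, 21 and 70 others.

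The 10 genes outside the lists with the highest fold change among those higher in all 3 libraries were Tspan10, Alx1, Syt4, Mcoln3, Car14, Cfap54, Amdhd1, Synpr, Bricd5 and Fstl4. Syt4, a synaptotagmin of vesicle release, had 237, 480 and 445 CPM in pigment cells and 0.173, 1.05 and 0.981 CPM elsewhere (8.94 ± 0.41). Mcoln3, an endolysosomal cation channel gene, had 182, 210 and 257 CPM against 0.0741, 0.562 and 0.960 CPM (8.62 ± 0.50). Alx1, a homeobox factor of cranial mesenchyme, had 68.2, 57.2 and 108 CPM against 0.0617, 0.0461 and 0.271 CPM (9.10 ± 0.42). These 3 genes were picked by their fold change and for being higher in all 3 libraries, so their distance from the other barcodes is a description. In the cells without markers of another class their log2 fold changes were 9.59, 9.59 and 10.09.

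Schwann cells share the neural crest origin, and the comparison with them asks what sets the pigment branch apart. The Schwann class held 108, 239 and 421 barcodes with at least 3 of 6 Schwann cell markers at 0.2% of UMIs and no other class. Of 8410 genes tested by edgeR, leaving out the genes that chose either group from the counts, 578 (6.87%) were higher and 856 (10.2%) lower in pigment cells, with a median of -0.01. Without the 3 week library 81 were higher and 145 lower, and without the neonatal library 1016 were higher. In the cells without markers of another class 312 were higher and 642 lower.

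Melanosome genes were higher in 10 of 20 tested with none lower (median 1.36), and in the cells without markers of another class in 9 of 16 with none lower. Slc45a2 and Gpr143 had no UMI in the Schwann class of any library, against 214, 137 and 38.9 CPM and 52.0, 30.4 and 15.1 CPM in pigment cells, where the Schwann floor of 3 counts is 2.34, 2.98 and 2.10 CPM. Ptgds was higher by 10.64 ± 0.72 on the log2 scale, with 0, 0.994 and 2.80 CPM in the Schwann class. Kit was higher by 6.20 ± 0.51, Mitf by 3.73 ± 0.33, Tfap2a by 2.29 ± 0.28 and Pax3 by 2.21 ± 0.35, the last with 79.5, 68.6 and 59.6 CPM in Schwann class barcodes. Met, the receptor of hepatocyte growth factor, was higher by 4.73 ± 0.50 and Cdh3 by 7.15 ± 0.55. The values of Tfap2a, Met and Cdh3 are from all cells, whose UMIs came mostly from cells with markers of another class. They are not given here without those cells, and the part of the cells with keratinocyte markers in them was not tested.

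Genes of the glial branch were lower. Of 16 tested genes shared by neural crest and Schwann cells none was higher and 10 were lower (median -2.39), and in the cells without markers of another class 1 of 14 was higher and 8 were lower (median -2.57). S100b, a calcium-binding protein of glia, had 6.49, 12.8 and 15.1 CPM against 80.3, 295 and 291 CPM (-4.37 ± 0.33), and Gas7 had 3.25, 4.67 and 4.32 CPM against 379, 301 and 128 CPM (-5.97 ± 0.40). The nerve growth factor receptor Ngfr had 0, 1.17 and 0 CPM against 110, 41.8 and 19.6 CPM, and nestin, Nes, had 3.25, 0 and 0 CPM against 39.7, 130 and 184 CPM. Sox2 was at 0 in pigment cells against 259, 103 and 133 CPM.

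For Sox10 and Foxd3 the call depended on the cells summed. Sox10 was lower in pigment cells than in Schwann class barcodes by -1.64 ± 0.27 (edgeR adjusted p = 0.0065), with 114, 87.6 and 95 CPM against 266, 251 and 357 CPM, but in cells without markers of another class it was at -0.70 and not called. Foxd3 likewise went from -2.57 ± 0.50 to -1.32 and lost its call. Ednrb was at 286, 308 and 233 CPM against 578, 37.8 and 49.1 CPM, lower than Schwann cells in the neonatal library and higher in the other two, with a log2 fold change of 1.38 ± 0.75 and an edgeR adjusted p of 0.255. Of 22 cell cycle genes 8 were higher and none lower with all cells, and 2 of 16 were higher and 1 lower in the cells without markers of another class.

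Outside the lists the leading genes were Lhx2, Gsta1, Mcoln3, Tspan10, Fstl4, Syt4, Tbx1, Alx1, Glrb and Slc6a17. Gsta1, a glutathione transferase, had 87.7, 245 and 315 CPM against 0, 0 and 0.701 CPM, and 156, 588 and 664 CPM in the cells without markers of another class. Lhx2 had 55.2, 216 and 196 CPM with all cells and 18.4, 0 and 0 CPM in the cells without such markers, and Tbx1 had 45.5, 130 and 86.4 CPM and then 9.19, 0 and 14.8 CPM. Glrb, a glycine receptor subunit, was at 149, 117 and 114 CPM with all cells and at 248, 238 and 207 CPM in the cells without such markers.

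Keratinocytes are the neighbours that take up melanosomes. Their class, with at least 3 keratinocyte markers at 1% of UMIs, held 243, 1384 and 1653 barcodes. Of 10925 genes tested by edgeR, 1109 (10.2%) were higher and 978 (8.95%) lower in pigment cells, with a median of -0.05. Without the 3 week library 433 were higher and 459 lower, and in the cells without markers of another class 810 were higher and 1489 lower.

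Neural crest genes rose against keratinocytes. Of 16 lineage factors tested 12 were higher and none lower (median 3.55), and of 16 genes shared by neural crest and Schwann cells 10 were higher and 2 lower (median 3.18). Without the cells that carried markers of another class 12 of 17 lineage factors were higher and 1 lower, and 9 of 16 shared genes were higher and 3 lower. Ednrb was higher by 8.67 ± 0.42, Kit by 8.41 ± 0.43, Sox10 by 7.97 ± 0.37 and Mitf by 5.71 ± 0.30. Tfap2a was not called (-0.12 ± 0.28), with 90.9, 141 and 121 CPM against 138, 90.7 and 114 CPM. Melanosome genes were higher in 14 of 24 and lower in 2, Mreg and Rab38, neither of which was called in the cells without markers of another class, where 13 of 23 were higher and none lower.

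Some lysosome and metal genes rose against keratinocytes. Of 19 lysosome genes 6 were higher and 1 lower, among them Hexa, a hexosaminidase subunit, with 77.9, 92.3 and 121 CPM against 1.05, 4.93 and 7.72 CPM (4.28 ± 0.37). Of 18 antioxidant and metal genes 6 were higher and none lower, including the ferritin light chain Ftl1 at 2.13 ± 0.18. The corresponding counts in the cells without markers of another class were 6 and 1 of 17 lysosome genes and 7 and 1 of 18 antioxidant and metal genes. Among 17 adhesion genes 5 were higher and 4 lower, against 6 and 5 of 16. Plakoglobin, Jup, was lower by -2.86 ± 0.25 and E-cadherin, Cdh1, by -1.34 ± 0.28, while P-cadherin, Cdh3, was higher by 1.87 ± 0.35. In the sum over all cells Cdh1 was still present, at 156, 95.8 and 60.5 CPM against 195, 213 and 235 CPM. The values of Jup, Cdh1 and Cdh3 are not given here without the cells that carried keratinocyte markers, whose part in them was not tested.

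**Figure D3:**
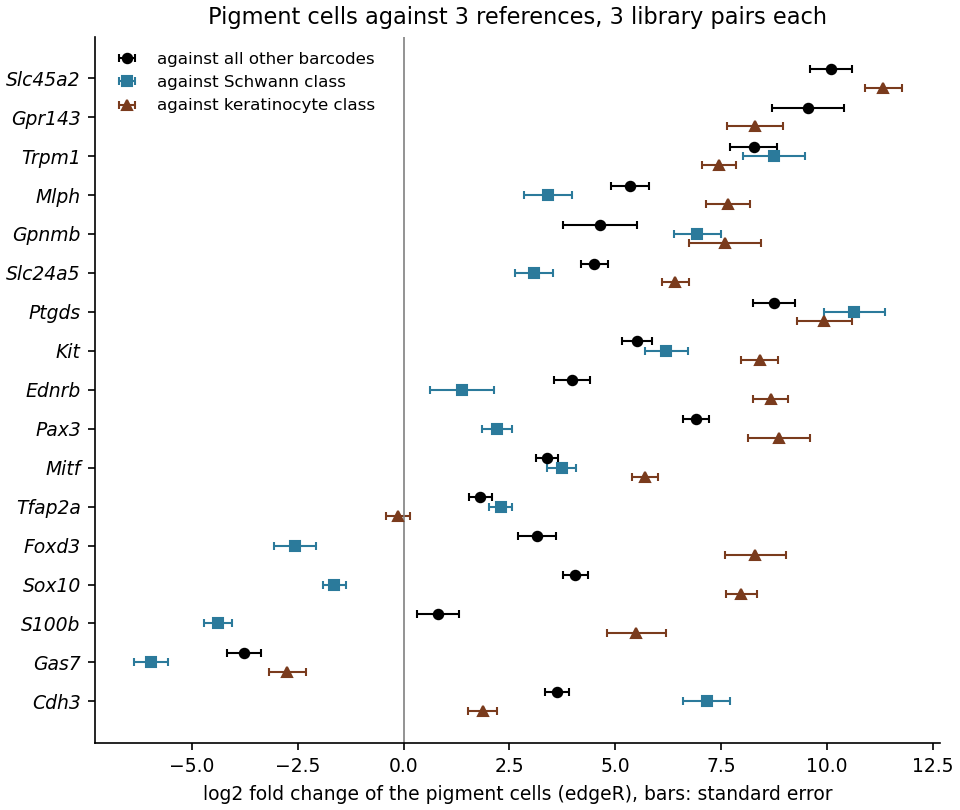
Log2 fold change of summed pigment cells (x) for selected genes (y) against all other barcodes, the Schwann class and the keratinocyte class, 3 library pairs each; bars are standard errors, and genes at 0 in every reference library are not drawn for it. Sox10, Foxd3, S100b and Gas7 lie below 0 against the Schwann class, and Pax3, Mitf and Kit lie above 0 against all 3.

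Between ages the summed pigment cells of the 3 libraries were compared as CPM, with a gene measured at 10 CPM and 10 counts in at least 1 of the 2 libraries and counted at a difference of 2-fold or more. A count below 3 was set to that floor and its ratio given as a bound. From neonatal to 3 weeks 803 of 8165 measured genes (9.83%) were higher and 439 (5.38%) lower, with a median log2 ratio of 0.06. Under TMM scaling, which corrects for composition, 1034 were higher and 311 lower and the median was 0.20. From 3 weeks to 2 months 680 of 8329 (8.16%) were higher and 925 (11.1%) lower, with a median of -0.06. In the cells without markers of another class the counts were 418 and 162 of 2337, and 481 and 464 of 2740.

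The genes that chose the cells were mostly lower at 2 months. Pmel was at 5731, 3982 and 1185 CPM in the neonatal, 3 week and 2 month libraries, and in the cells without markers of another class at 10620, 9442 and 1845 CPM. Its log2 ratio from 3 weeks to 2 months was -1.75 (-1.88 to -1.62) in all cells and -2.36 (-2.56 to -2.16) in the latter. Mlana was at 948, 1114 and 371 CPM and Tyr at 325, 242 and 97.2 CPM, and in the same order in the cells without markers of another class at 1654, 2591 and 827 CPM and at 634, 491 and 170 CPM. Dct stayed within 2-fold between neighbouring ages, at 3987, 4216 and 3139 CPM with all cells and at 6284, 10016 and 5668 CPM in the others. Tyrp1 differed in pattern, at 399 CPM in the neonatal library, 1595 CPM at 3 weeks and 937 CPM at 2 months with all cells, and at 900, 3872 and 1808 CPM in the others. Since the 5 genes chose the cells, these levels are a description.

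The genes of the pigment list that the rule did not use were in part lower at 2 months. Of 23 measured, 6 were lower than at 3 weeks and 1 was higher, with a list median of -0.11. In the cells without markers of another class 5 of 14 were lower and 2 higher (median -0.59). Of all measured genes 925 of 8329 were lower with all cells, and 464 of 2740 in the cells without such markers. In all other barcodes 2 of the list were lower and 2 higher (median 0.09). Trpm1 was at 308, 285 and 32.4 CPM, a log2 ratio of -3.14 (-4.00 to -2.39) from 3 weeks to 2 months. In the cells without markers of another class it was at 542, 663 and 29.5 CPM, a log2 ratio of -4.49 (-6.40 to -3.08). Slc45a2 was at 214, 137 and 38.9 CPM (-1.81, -2.62 to -1.09) and Slc24a5 at 490, 265 and 88.5 CPM (-1.58, -2.10 to -1.10). Gpr143 was at 52.0, 30.4 and 15.1 CPM with an interval of its log2 ratio that held 0 (-2.45 to 0.24). Mc1r, which belongs to the receptor list and not to the pigment list, was at 74.7, 39.7 and 6.48 CPM. Its last value came from 3 UMIs, with a log2 ratio of -2.62 (-4.96 to -0.95). Cited1, a transcriptional coactivator, went the other way at 9.74, 35.0 and 106 CPM, and at 0, 89.4 and 266 CPM in the cells without markers of another class. Gpnmb at 984, 865 and 540 CPM, and Ptgds of the lipid mediator list at 2864, 1895 and 2401 CPM, stayed within 2-fold between neighbouring ages.

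**Figure D4:**
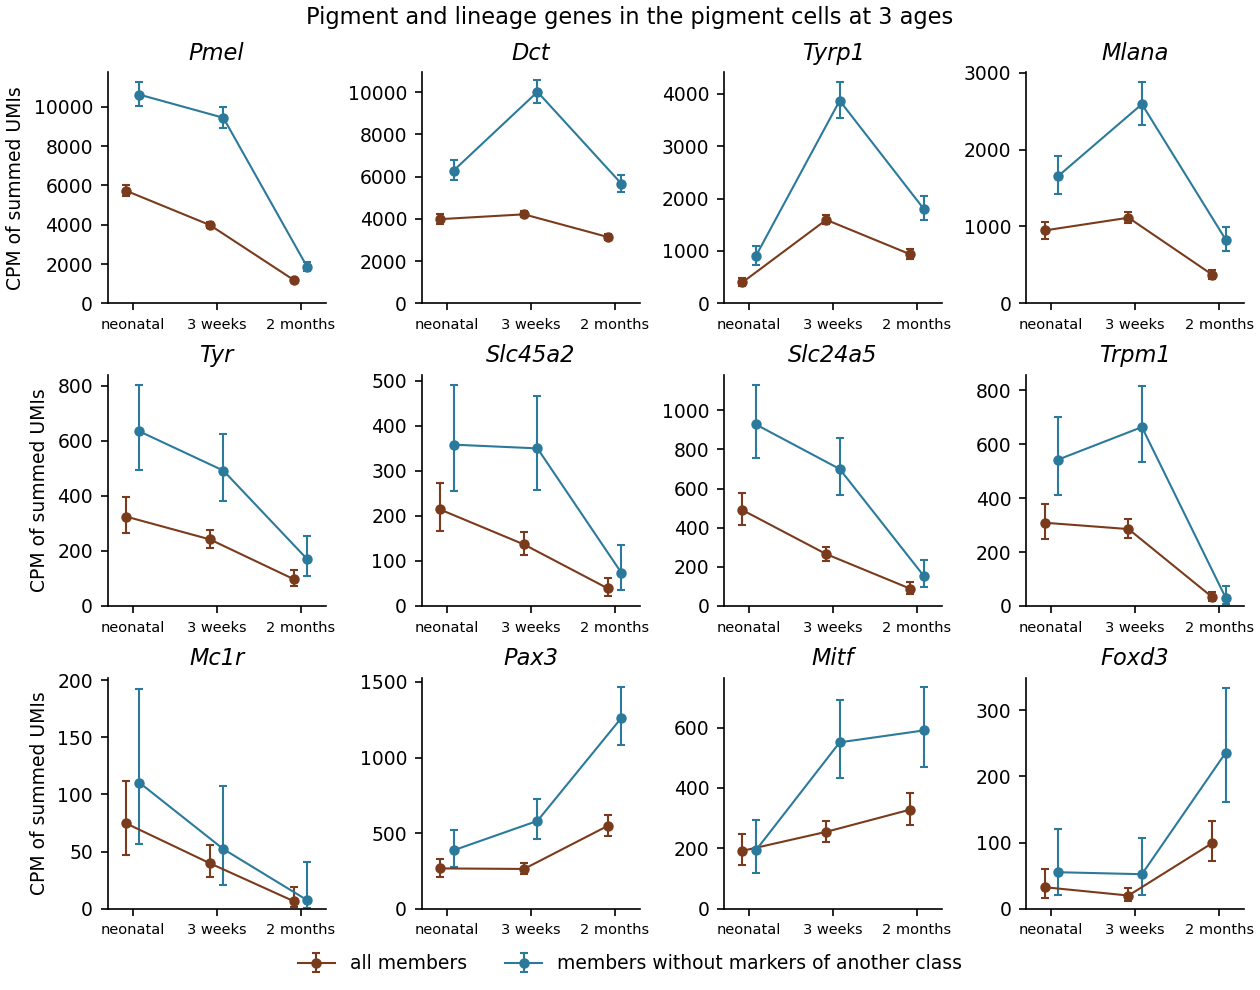
CPM of summed pigment cells (y, from 0) in the neonatal, 3 week and 2 month libraries (x) for 12 genes, for all cells and for those without 3 or more markers of another class; error bars are exact 95% Poisson intervals for counting error. Pmel, Slc45a2, Slc24a5 and Trpm1 are lowest at 2 months and Pax3 and Foxd3 highest in both sets of cells.

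Most measured stem cell genes were higher at 2 months. Of 11 measured melanocyte stem cell and melanoblast genes 8 were higher than at 3 weeks and none lower, beside 8.16% of all measured genes that were higher. The median log2 ratio of the 11 genes was 1.10, while in all other barcodes it was 0.47 with none at 2-fold. In the cells without markers of another class 7 of 9 were higher (median 1.24), beside 481 of 2740 measured genes there. Pax3 was at 266, 263 and 548 CPM, a log2 ratio of 1.06 (0.80 to 1.33), and Foxd3 at 32.5, 19.9 and 99.3 CPM, or 2.32 (1.49 to 3.22). Zeb2, a zinc finger factor, was at 107, 117 and 250 CPM and Dkk3 at 84.4, 117 and 250 CPM. The list of lineage factors shares Pax3, Zeb2, Foxd3 and Tfap2b with the stem cell list, so the results of these lists are not separate. Of 16 lineage factors 5 were higher and none lower (median 0.76). In all other barcodes 2 of them were higher with a median of 0.66, so the list's median was similar there. Without the cells that carried markers of another class 7 of 11 were higher (median 1.09). Tbx2 was at 16.2, 14.0 and 41.0 CPM.

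Of 15 measured receptor and ligand response genes 1 was higher and 1 lower at 2 months than at 3 weeks (median 0.02), and Mc1r, given above, was lower. The lineage factors Mitf and Sox10 and the receptors Kit and Ednrb stayed within 2-fold. Mitf was at 192, 255 and 328 CPM, with a log2 ratio of 0.37 (0.06 to 0.67), and Sox10 at 114, 87.6 and 95 CPM, or 0.12 (-0.45 to 0.67). Kit at 179, 146 and 121 CPM (-0.27, -0.75 to 0.19) and Ednrb at 286, 308 and 233 CPM (-0.40, -0.74 to -0.07) also stayed within 2-fold. The bulge marker Cd34 was at 13.0, 30.4 and 132 CPM with all cells but had no UMI in the cells without markers of another class at any age. Id1, an inhibitor of basic helix-loop-helix factors, was at 39.0, 280 and 769 CPM with all cells and at 9.19, 0 and 95.9 CPM in the cells without such markers.

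Proliferation genes were lower at 2 months. Of 24 cell cycle genes 20 were lower than at 3 weeks and none higher, with a median of -1.89, and in all other barcodes 17 were lower with a median of -1.19. Top2a was at 149, 160 and 6.48 CPM, the last from 3 UMIs, and Mki67 at 107, 96.9 and 10.8 CPM. Birc5, survivin, was at 87.7, 126 and 6.48 CPM and Stmn1, a microtubule regulator, at 380, 706 and 123 CPM. In the cells without markers of another class 8 of 11 measured genes were lower (median -1.47), beside 464 of 2740 measured genes there. In these cells Stmn1 was at 193, 343 and 51.7 CPM, Birc5 at 27.6, 164 and 0 CPM and Top2a at 73.5, 29.8 and 0 CPM. The floors of these sums are 27.6, 22.3 and 22.1 CPM. Mki67 or Top2a was detected in 2, 2 and 1 of these 11, 21 and 70 cells. A neonatal cell with a rule share of 0.201% held 7 Top2a UMIs and a 3 week cell held 3, so Top2a rests on few cells. From neonatal to 3 weeks 4 of 24 were higher and none lower, and the sign of the list median (0.02) depended on the scaling.

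Class I antigen presentation genes and Mt1 were higher at 2 months. Of 14 MHC and interferon genes 4 were higher than at 3 weeks and none lower (median 0.72). In the cells without markers of another class 8 of 9 were higher (median 2.57), beside 481 of 2740 measured genes there. The class I genes H2-D1 and H2-K1 were at 208, 422 and 1155 CPM and at 140, 265 and 674 CPM, and in the latter cells at 184, 343 and 2030 CPM and at 45.9, 149 and 915 CPM. In all other barcodes the median of this list was 0.48 with none at 2-fold. Of 17 antioxidant and metal genes 4 were higher and none lower, with a median of 0.17 against 0.15 in all other barcodes. Metallothionein Mt1 was at 1107, 1365 and 4280 CPM with all cells and at 1406, 2234 and 8620 CPM in those without markers of another class.

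Genes of the response to tissue dissociation were higher with age too. Of 16, 13 were higher at 3 weeks than in the neonatal library and none lower (median 1.34), while in all other barcodes 3 were higher and 1 lower. From 3 weeks to 2 months 7 were higher (median 0.89), and 14 of 16 in the cells without markers of another class (median 2.24). Of all genes measured in the latter cells 481 of 2740 were higher. The heat shock gene Hspa1a was at 432, 2954 and 4651 CPM with all cells and at 101.1, 670 and 5919 CPM in those without markers of another class, and Jun at 841, 2713 and 5731 CPM and at 358, 1162 and 5653 CPM. These genes and the low depth of the pigment cells at 2 months move with the pigment, stem cell and MHC differences above, and their part in them was not tested.

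**Figure D5:**
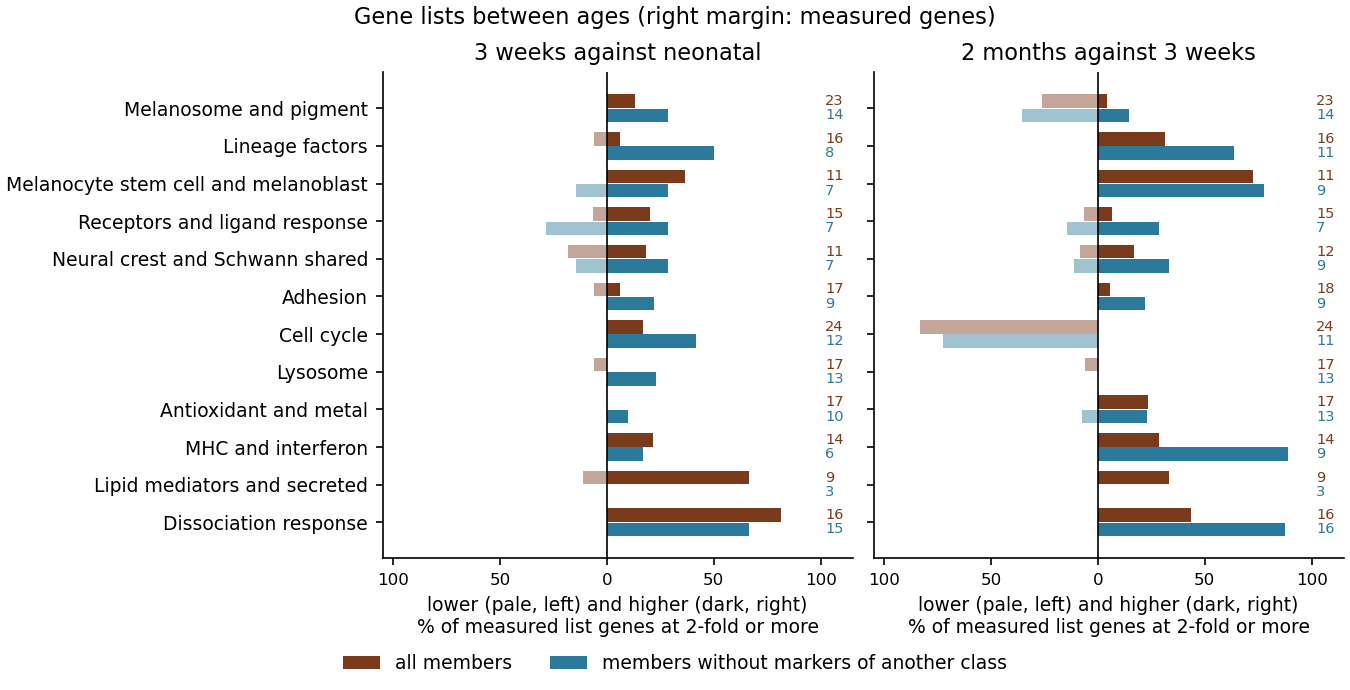
Percent of measured genes of 12 lists (y) that were higher (right, dark) or lower (left, pale) at 2-fold or more from neonatal to 3 weeks and from 3 weeks to 2 months, for all pigment cells and for those without 3 or more markers of another class; the numbers at the right are measured genes. Cell cycle genes are on the lower side and stem cell, MHC and dissociation genes on the higher side at 2 months in both sets.

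From neonatal to 3 weeks few pigment genes differed by 2-fold. Of 23 melanosome and pigment genes 3 were higher and none lower, beside 9.83% of all measured genes that were higher, and in all other barcodes 3 of the list were higher and 1 lower. This share is near the background. The 3 in pigment cells were Rab27a, at 13.0 and 54.9 CPM, Cited1, at 9.74 and 35.0 CPM, and Sytl2, a Rab27 effector, at 19.5 and 85.2 CPM. The sign of that list's median (-0.16 with all cells, 0.38 in those without markers of another class) depended on the cells summed. With all cells Cdh3 was at 64.9 and 225 CPM, a log2 ratio of 1.80 (1.13 to 2.54), and Met at 22.7 and 63.1 CPM. Cells with keratinocyte markers were 5 of 18 in the neonatal library and 21 of 46 at 3 weeks. The values of Cdh3 and Met are not given here without the cells that carried keratinocyte markers, and the part of these cells in the differences was not tested. Of 9 lipid mediator and secreted genes 6 were higher and 1 lower with all cells, and none of 3 in either direction without markers of another class, where the matrix protein Sparc was at 717, 573 and 421 CPM against 818, 2248 and 4148 CPM with all cells.

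Among genes called higher in pigment cells than in all other barcodes, the extremes between ages included genes of 3 secreted products. Npy, neuropeptide Y, was at 279, 67.7 and 17.3 CPM with all cells and 404, 127 and 36.9 CPM in those without markers of another class. Gdnf, a neurotrophic factor, was at 6.49, 9.34 and 95 CPM and then 9.19, 22.3 and 177 CPM. Rnase1, a secreted ribonuclease, was at 9.74, 39.7 and 225 CPM and then 18.4, 59.6 and 502 CPM. Espn, an actin-bundling protein gene, was at 16.2, 14.0 and 90.7 CPM and then 9.19, 29.8 and 207 CPM. Cd274, the ligand PD-L1, was at 13.0, 3.50 and 66.9 CPM and then 9.19, 7.45 and 125 CPM. In the cells without markers of another class the floors of 3 counts are 27.6, 22.3 and 22.1 CPM. The neonatal values there of Gdnf, Rnase1, Espn and Cd274, and the 3 week value of Cd274, lie below them. Others of the extremes rested on cells with markers of another class. Il10 had 169 CPM in the neonatal library, all from 1 cell, and no UMI in the cells without such markers, and Ltc4s, at 64.9, 64.2 and 0 CPM, also had none there.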

How the data were processed

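Single cells of mouse dorsal skin at 3 ages were measured with 1 library each. The deposited values are raw UMI counts per gene and barcode, made by the authors with Cell Ranger 3.0.2 on mm10 per the submitters' processing notes, which also name Seurat 2.0. How intronic reads and strand were handled is not given in the sources used here. Barcodes were kept with 300 genes, 500 UMIs and at most 10% mitochondrial UMIs, and pigment cells were chosen as stated above. Comparison classes used the same form of rule, with at least 3 markers and a share of UMIs of 0.2% (Schwann, immune, endothelial, mast), 0.5% (fibroblast, mural) or 1% (keratinocyte), and barcodes that met 2 rules entered no class.

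Counts were summed per library and tested with edgeR 4.0.16 (R 4.3.3) by quasi-likelihood F tests with TMM scaling, its default filter and the library as a block, with Benjamini-Hochberg adjustment over all genes tested. Standard errors were derived from the F statistic. The libraries pair the sums because both come from the same skin, and deviations from the group means correlated by 0.0781 to 0.294 within a library. P-values measure the spread between 3 libraries of 3 ages. Ages were compared as CPM with exact Poisson intervals and a floor of 3 counts. Python 3.11.15 and scanpy 1.11.5 were used, with Scrublet at an expected rate of 0.06 for an alternative without doublets. In the main results doublets were kept. Its own threshold marked 0.0253% of neonatal barcodes, so there the 475 highest scores were removed, and 211 and 348 barcodes were removed by its threshold at 3 weeks and 2 months. DESeq2 1.42.0 was an alternative test.

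The members, the 13 gene lists (223 genes found, 2 not matched) and the tests were chosen with earlier results of these data known. Genes named are the 5 rule genes, a fixed set of lineage and pigment genes, up to 4 genes per list by size of difference, and outside the lists the 10 most extreme per comparison. Others named from the lists, and Gsta1, Mlana and Kitl in other classes, were chosen after their values were seen. Sex-linked genes, a list of 5, had no call among the 4, 3 and 4 tested in the 3 edgeR comparisons. Some markers and genes of these lists are not reported here.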

Additional observations from a re-analysis of the deposited data

How the results depend on the processing

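Of 136 recomputed counts and shares 114 stayed within 1.5 times the reported count or within its interval, and of 465 recomputed edgeR values of single genes 439 kept direction and call, 15 lost the call, 6 gained it and 5 changed sign. All 5 were in cells without markers of another class, with Mki67 at -0.014 against all other barcodes and -0.343 against keratinocytes, and Top2a at -0.690, -0.980 and -0.0098 against all other barcodes, keratinocytes and the Schwann class. Of these, Mki67 against all other barcodes had been called. Without the replicate block that pairs the sums of a library, 239 genes were higher and 596 lower than in all other barcodes, and the block moved no other count by over 1.5 times. Leaving out 1 library gave 274 to 630 higher and 966 to 1740 lower against all other barcodes, 81 to 1016 and 145 to 1221 against the Schwann class, and 433 to 1169 and 459 to 1090 against the keratinocyte class, with the lowest counts without the 3 week library. With no filter on low counts 968 were higher and 1379 lower than in the Schwann class. Leaving out cells with markers of another class, chosen after seeing the data, gave 312 higher against the Schwann class and 1489 lower against keratinocytes. Between ages it gave 418 higher and 162 lower at 3 weeks and 464 lower at 2 months, with fewer genes measured, and the shares became 0.237% at 3 weeks and 0.752% at 2 months. With cells that met another class's full rule left out the 3 week share was 0.360%. A rule share of 0.5% gave 0.579% at 2 months and 611 genes lower there, and the mean of CPM per cell gave 889 lower at 3 weeks. Apart from fewer libraries, cells or genes, the cause was not tested. Of 520 list counts between ages 408 stayed within 1.5 times, and of 360 values of single genes 310 moved by less than their counting interval. Depth limits the cells without markers of another class most, whose sums have floors of 27.6, 22.3 and 22.1 CPM in the neonatal, 3 week and 2 month libraries.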

Other observations

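A few barcodes outside the quality limits also met the marker rule. They were 1 of 541 in the neonatal library (0.185%) and 3 of 858 at 2 months (0.350%), all above 10% mitochondrial UMIs, and 0 of 1326 at 3 weeks, which allows a share of up to 0.226%. Xist, the transcript of the inactive X chromosome, was at 351, 0 and 0 CPM in pigment cells and at 631, 0.0922 and 0.0626 CPM in all other barcodes of the neonatal, 3 week and 2 month libraries. The Y-linked gene Ddx3y was at 39.0, 75.9 and 123 CPM in pigment cells. Xist thus differed between the neonatal and the older libraries. A difference in the sex of the animals cannot be told apart from age between the neonatal and 3 week libraries.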
